A study of Mus musculus with 2 samples.

Results

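The cells described here carried RNA of both Pou4f1 and Pou4f2, 2 POU-homeodomain transcription factors, in day 9 cultures of mouse embryonic stem cells. Most were neurons, but 7 in the RA+BMP4 library and 16 in the RA library fell below the cut for neurons given further on. A cell barcode was kept with at least 1000 detected genes and at most 10% mitochondrial UMIs, where a UMI counts 1 captured RNA molecule. A kept cell was a member with at least 1 UMI of Pou4f1 and at least 1 of Pou4f2, no UMI of Barhl1, Barhl2, Foxd3 or Isl1, and fewer than 2 UMIs of Prrxl1 and Lmx1b together. The rule found 71 members among 8650 kept cells of the RA+BMP4 library and 238 among 6038 kept cells of the RA library, 309 of 14688 cells in all. The working name of the class was later dI5-like neurons. In the RA library 3 of the 4 further markers given for that name (Reln, Slc17a6 and Cntnap5a) were higher than in other neurons, while the dI5 factors Tlx3 and Lbx1 were not. In the RA+BMP4 library 0 of these markers were higher.

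Both libraries came from the MM13 mouse embryonic stem cell line, differentiated for 9 days with retinoic acid (RA) and BMP4 in one and with RA and no BMP4 in the other, so RA was common to both. Cells were dissociated in trypsin, depleted of dead cells and captured with the 10x Genomics Chromium 3' chemistry, version 3. Each condition was 1 library, which leaves no measure of the spread between cultures. Every comparison is therefore a description of these 2 libraries, no p-value was computed, and intervals are 95% intervals that cover counting error only.

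dI5 neurons are excitatory interneurons of the dorsal spinal cord that switch on Lbx1, Tlx3, Lmx1b and Prrxl1 as they are born, and settle in the dorsal horn, where they relay touch, itch and pain. Pou4f1 (Brn3a) marks dI5 neurons and also the dI1, dI2 and dI3 classes, and Pou4f2 (Brn3b), best known as a regulator of retinal ganglion cells, is found in part of them. dI2 neurons, which derive from more dorsal progenitors, carry Foxd3 and the LIM-homeodomain factors Lhx1 and Lhx5. Slc17a6 encodes the vesicular glutamate transporter VGLUT2 of excitatory neurons, and Reln encodes reelin, a secreted glycoprotein that guides neuronal positioning in the cortex and the dorsal horn.

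Members made up 0.821% of the kept cells in RA+BMP4 (exact binomial interval 0.642 to 1.03%) and 3.94% in RA (3.465 to 4.46%), a ratio of 0.208 (0.160 to 0.271). Neurons were taken as cells with at least 20 UMIs of Tubb3, Stmn2, Elavl3 and Elavl4 per 10000. By this cut 64 RA+BMP4 members and 222 RA members were neurons, which is 1.86% of 3440 neurons and 7.80% of 2846 neurons. The members' median depth was 10675 UMIs in RA+BMP4 and 13231 in RA, the median mitochondrial share 4.55% and 6.21%, and 4 and 8 members were called as doublets. The 2 libraries shared 43 barcodes, of which 0 belonged to members. When each cell was thinned to 5000 UMIs before the gates, the ratio of shares of neurons was 0.328, against 0.239 at full depth.

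Cells that should lack both genes gave the background of the double gate. UMIs of both Pou4f1 and Pou4f2 stood in 4 of 850 collagen-rich cells of RA+BMP4 (0.471%, median 15374 UMIs) and in 1 of 413 of RA (0.242%, median 24380 UMIs). Among Pax2 neurons they stood in 1 of 210 of RA+BMP4 (0.476%) and 4 of 609 of RA (0.657%). Members were left out of the Pax2 neurons, so Pax2 cells that passed the whole rule are missing from the Pax2 shares. The background counts used only the 2 positive gates, whereas the members also passed the exclusions. By the positive gates alone, 305 of 8650 kept cells passed in RA+BMP4 and 386 of 6038 in RA. The members' 0.821% and 3.94% of kept cells are therefore not a like measure for the background shares. How many RA+BMP4 members passed the gate through free RNA was not tested. Pou4f2 was at exactly 1 UMI in 39 RA+BMP4 members and 134 RA members, so most of each set stood at the edge of the gate. Levels are in CPM, the summed UMIs of a gene scaled to the total UMIs of the same cells. In RA, Slc17a6 was at 111.8 CPM in members with 1 Pou4f2 UMI and at 157.4 CPM in those with 2 or more. Just outside the gate, the 1065 RA cells with Pou4f1 and no Pou4f2 had 31.0 CPM. Of those cells 675 passed the neuron cut, against 222 of the 238 members, so the sets also differ in their share of neurons.

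The other gates removed different cells in the 2 libraries. Of the 305 RA+BMP4 cells and 386 RA cells with both Pou4f genes, 149 and 38 failed only the Foxd3 gate, 8 and 89 only the gate on Prrxl1 and Lmx1b, 22 and 9 only the Isl1 gate, and 16 and 5 only the Barhl gate. The cells taken out in RA+BMP4 were thus mostly Foxd3 cells, and those in RA mostly Prrxl1 and Lmx1b cells. The cells that failed only the Foxd3 gate had 517.5 CPM of Lhx1 and 15.03 CPM of Slc17a6 in RA+BMP4. Those that failed only the Prrxl1 and Lmx1b gate had 8.84 CPM of Lhx1 and 119 CPM of Slc17a6 in RA.

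**Figure D1:**
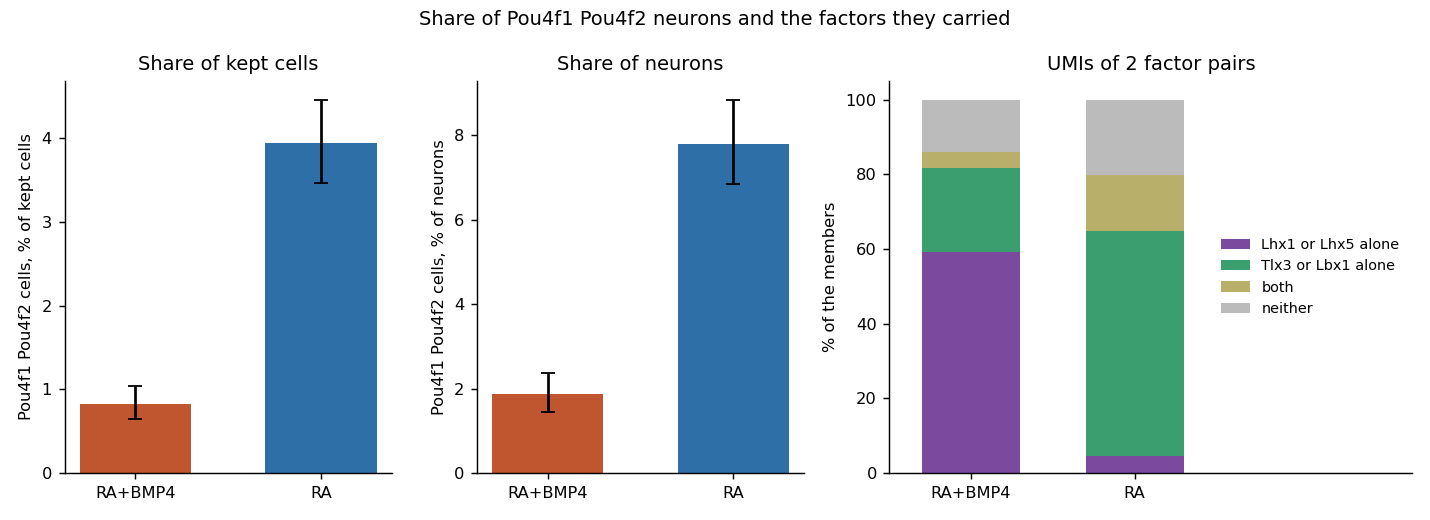
Members as a percentage of kept cells (left) and neuronal members as a percentage of neurons (middle), in RA+BMP4 and RA, with exact binomial intervals, and the members of each library divided by UMIs of Lhx1 or Lhx5 and of Tlx3 or Lbx1 (right). Lhx1 or Lhx5 alone marked 59.2% of the RA+BMP4 members and 4.62% of the RA members.

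The markers listed for later dI5 neurons, beyond the 2 gate genes, were Reln, Slc17a6, Cntnap5a (a contactin-associated cell surface protein) and Fstl5 (a secreted follistatin-like protein). Values are given for the neuronal members, and a gene is called higher or lower at a ratio of at least 2 with 20 CPM or more on either side. Reln was at 87.3 CPM in RA+BMP4 members (66.3 to 112.8, Poisson interval) and 118 CPM in the other RA+BMP4 neurons, and at 318.5 CPM in RA members (298.7 to 339.3) and 94.8 CPM in the other RA neurons. Slc17a6 was at 31.6 CPM in RA+BMP4 members (19.6 to 48.3) and 109 CPM in the other RA+BMP4 neurons, and at 156 CPM in RA members (142.3 to 170.9) and 45.8 CPM in the other RA neurons. The log2 ratios of members over other neurons were -0.43 for Reln and -1.78 for Slc17a6 in RA+BMP4, and 1.75 and 1.77 in RA. Reelin and VGLUT2 RNA was therefore high in the RA members and not in the RA+BMP4 members.

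Cntnap5a had 9.03 CPM in RA+BMP4 members and 14.7 CPM in other neurons there, and 56.5 CPM in RA members and 23.9 CPM in other RA neurons. Fstl5 had 188 and 111 CPM in RA+BMP4 members and other neurons, and 241 and 165 CPM in RA members and other neurons, under 2-fold in both. Of the 3 markers that reached 20 CPM in RA+BMP4, 0 were called higher and 1 lower in members (median log2 ratio -0.43), where 1.09% of all genes tested were called higher and 2.0% lower. Of the 4 that reached it in RA, 3 were called higher and 0 lower (median 1.495), where 0.602% of genes were called higher and 2.01% lower. The medians over all genes were -0.004 and 0.006. The dI5 and dILB list had 0 higher and 0 lower of 2 in RA, with Tlx3 at 152 CPM in members and 126 CPM in other neurons and Lbx1 at 71.4 and 71.2 CPM. The markers were chosen with these libraries known, so the RA count is a check of the name and not separate evidence for it.

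The shares of cells followed the summed levels. Slc17a6 was detected in 12 of 71 RA+BMP4 members (16.9%) and 154 of 238 RA members (64.7%), and Reln in 26 (36.6%) and 189 (79.4%). After thinning, the shares were 11.9% and 41.8% for Slc17a6 and 17.9% and 60.3% for Reln. In collagen-rich cells the thinned shares were 2.07% in RA+BMP4 and 0.246% in RA for Slc17a6, and 3.16% and 1.48% for Reln. UMIs of Slc17a6 and Reln together stood in 5 RA+BMP4 members and 139 RA members. Inhibitory transmission genes (Gad1 and Gad2, which make GABA, and Slc32a1, which loads it into vesicles) were detected in 0 of 71 RA+BMP4 members, a count that allows at most 4.23% of members with such a UMI. They were detected in 12 RA members. In RA, Gad1, Gad2 and Slc32a1 had a UMI in 1.26%, 0.840% and 3.36% of members, and in 1.45%, 3.15% and 2.42% of collagen-rich cells. These shares are at full depth, with a median of 13231 UMIs in members and 24380 in collagen-rich cells. They therefore do not settle whether the RA members stood above background.

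**Figure D2:**
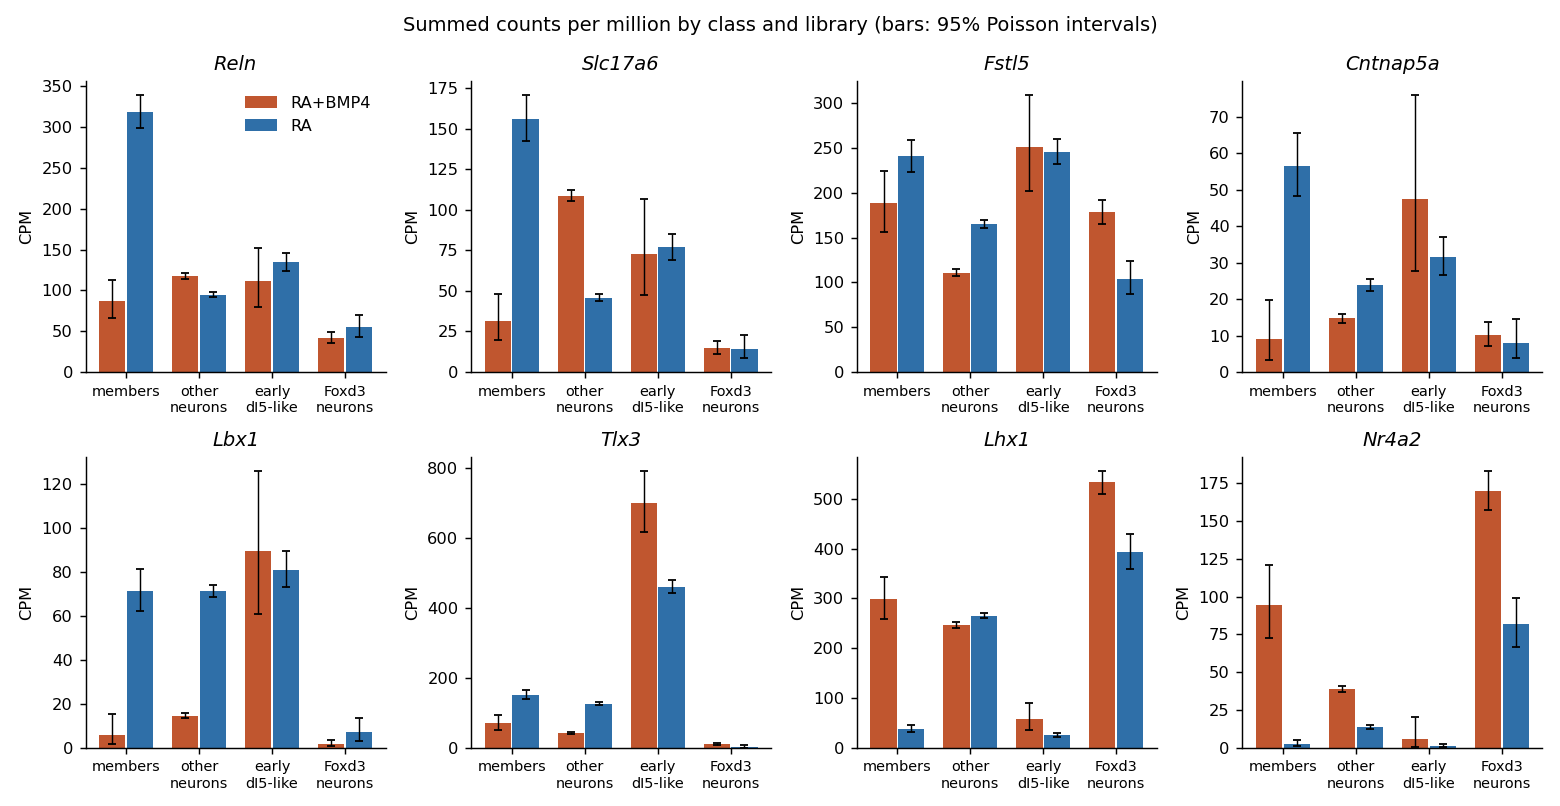
Summed CPM of 8 genes in neuronal members, other neurons, early dI5-like neurons and Foxd3 neurons of the RA+BMP4 (orange) and RA (blue) libraries, with 95% Poisson intervals. Reln and Slc17a6 stand highest in the RA members, and Lhx1 and Nr4a2 stand higher in RA+BMP4 members than in RA members.

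The promoters of the genes that separate the members of the 2 libraries are shown because Pou4f proteins are homeodomain factors that bind AT-rich DNA. Each is the window from 250 bases before to 50 bases after an annotated start, from RefSeq on GRCm38.p6, with any TAATTA in capitals. Windows were searched on both strands for TAATTA, a common homeodomain core, and for ATAATTAAT, which contains it and is the centre of a sequence that Pou4 factors were reported to prefer in the test tube.
Slc17a6, second of 2 starts, chr7:51624387-51624686, plus strand: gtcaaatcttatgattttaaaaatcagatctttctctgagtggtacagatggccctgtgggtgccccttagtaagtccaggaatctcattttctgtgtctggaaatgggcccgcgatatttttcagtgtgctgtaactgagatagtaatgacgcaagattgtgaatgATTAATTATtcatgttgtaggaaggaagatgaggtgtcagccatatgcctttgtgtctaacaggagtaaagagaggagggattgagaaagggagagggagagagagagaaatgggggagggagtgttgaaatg
Reln, chr5:22344656-22344955, minus strand: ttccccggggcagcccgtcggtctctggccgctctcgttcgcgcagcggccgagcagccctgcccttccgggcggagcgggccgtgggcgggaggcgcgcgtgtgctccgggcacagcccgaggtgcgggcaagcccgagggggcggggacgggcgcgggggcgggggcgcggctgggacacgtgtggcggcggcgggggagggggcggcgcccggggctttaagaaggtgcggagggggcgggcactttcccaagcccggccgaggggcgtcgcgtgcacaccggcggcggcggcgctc
Robo3, chr9:37433126-37433425, minus strand: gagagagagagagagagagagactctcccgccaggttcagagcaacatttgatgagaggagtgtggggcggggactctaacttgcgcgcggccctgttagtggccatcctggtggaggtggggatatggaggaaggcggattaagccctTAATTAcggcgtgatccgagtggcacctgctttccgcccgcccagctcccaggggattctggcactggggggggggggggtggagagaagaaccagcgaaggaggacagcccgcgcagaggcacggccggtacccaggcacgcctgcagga
Lhx1, chr11:84525485-84525784, minus strand: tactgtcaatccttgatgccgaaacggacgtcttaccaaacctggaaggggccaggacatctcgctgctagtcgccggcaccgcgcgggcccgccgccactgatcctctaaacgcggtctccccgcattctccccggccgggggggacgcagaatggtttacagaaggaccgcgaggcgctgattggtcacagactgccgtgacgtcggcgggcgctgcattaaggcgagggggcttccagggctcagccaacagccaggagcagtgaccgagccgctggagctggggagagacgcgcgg
The Slc17a6 window held ATAATTAAT read on the opposite strand, from 83 bases before the start, and the capitals there mark all 9 bases. The Robo3 window held TAATTA from 101 bases before the start. The windows of Reln, Lhx1 and the first Slc17a6 start held neither, which says only that these letters are not in those windows.

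Across the table TAATTA stood in 5.29% of 32851 windows and ATAATTAAT in 90 windows (0.274%). Counted by gene, as the sets below are, the shares were 6.12% and 0.326% of 27025 genes. Among the 15 genes with the highest ratio of RA members over other RA neurons, 11 had a window, of which Slc17a6 and Tac1 held TAATTA and Slc17a6 alone held ATAATTAAT. Among the 15 highest of RA+BMP4, 10 had a window, of which Cntn4, Hrk and Tac1 held TAATTA and 0 held ATAATTAAT. A match is a description of the letters and was not tied to binding.

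The factors that the rule did not use divided the members. UMIs of Lhx1 or Lhx5, without Tlx3 or Lbx1, stood in 42 of 71 RA+BMP4 members (59.2%, 46.8 to 70.7%) and in 11 of 238 RA members (4.62%, 2.33 to 8.12%). UMIs of Tlx3 or Lbx1, without Lhx1 or Lhx5, stood in 16 RA+BMP4 members (22.5%) and in 143 RA members (60.1%). Both pairs were present in 3 and 36 members, and neither in 10 and 48. After thinning to 5000 UMIs the shares of Lhx1 or Lhx5 alone were 43.3% and 6.33%, and those of Tlx3 or Lbx1 alone 20.9% and 44.7%.

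Cells with Lhx1 or Lhx5 alone and cells with Tlx3 or Lbx1 alone differed in gene levels. Among RA+BMP4 neuronal members, Slc17a6 had 21.65 CPM in the 39 cells with Lhx1 or Lhx5 alone (9.90 to 41.1) and 52.4 CPM in the 16 cells with Tlx3 or Lbx1 alone (22.6 to 103.2), with overlapping intervals. Reln had 40.9 CPM (23.8 to 65.5) and 164 CPM (105.9 to 241.5) in the same cells. Among RA neuronal members, Reln had 86.3 CPM in the 11 cells with Lhx1 or Lhx5 alone (44.6 to 150.7, from 12 counts in 3 cells) and 299.7 CPM in the 139 cells with Tlx3 or Lbx1 alone (275.4 to 325.5). Slc17a6 had 50.3 and 149 CPM there. Reln was thus lower in the cells with Lhx1 or Lhx5 alone than in those with Tlx3 or Lbx1 alone, with intervals that did not overlap in either library. The 34 RA cells with both pairs were not low, at 361 CPM of Reln (311.5 to 415.9) and 142 CPM of Slc17a6. The 38 RA cells with neither pair were highest, at 417 CPM of Reln and 235 CPM of Slc17a6, and the 7 RA+BMP4 cells with neither had 232 CPM of Reln, from 16 counts.

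Other genes were high in the cells with Lhx1 or Lhx5 alone. Hmx2, a homeobox factor of the dI2 list, had 55.3 CPM in RA+BMP4 cells with Lhx1 or Lhx5 alone and no UMI in those with Tlx3 or Lbx1 alone, and 86.3 and 1.59 CPM in the RA cells so divided. Robo3, the receptor that lets commissural axons reach the midline, had 363 and 137 CPM in RA+BMP4 and 446 and 90.3 CPM in RA. The 34 RA cells with both pairs had no UMI of Hmx2 and 121 CPM of Robo3, below the levels of the 11 cells with Lhx1 or Lhx5 alone. Nr4a2, an orphan nuclear receptor, had 149 CPM in the RA+BMP4 cells with Lhx1 or Lhx5 alone, in 12 cells, and no UMI in the 11 RA cells of that kind. Pnoc, the precursor of the peptide nociceptin, had all of its 58 RA+BMP4 counts in 9 cells with Lhx1 or Lhx5 alone. Tox2, an HMG-box factor, went the other way, with no UMI in the RA+BMP4 cells with Lhx1 or Lhx5 alone and 58.9 CPM in those with Tlx3 or Lbx1 alone.

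Likeness to other classes was measured over the levels of neuronal transcription factors. Only the genes of the member rule were left out, and 42 factors in RA+BMP4 and 39 in RA had enough counts. This removed the genes that select Foxd3 and Barhl neurons. Tlx3 and Pax2, which helped select early dI5-like and Pax2 neurons, were not removed. In RA+BMP4, Spearman's rho between members and another class over these factors was 0.93 for Pou4f1 neurons without Pou4f2, 0.906 for Foxd3 neurons, 0.824 for Barhl neurons, 0.78 for early dI5-like neurons and 0.584 for Pax2 neurons. In RA it was 0.947 for Pou4f1 neurons without Pou4f2, 0.88 for early dI5-like neurons, 0.82 for Barhl neurons, 0.701 for Pax2 neurons and 0.672 for Foxd3 neurons. The points are genes of 2 classes within 1 library, which share its depth and base level of expression. By rho, beside Pou4f1 neurons without Pou4f2, the RA+BMP4 members were closest to Foxd3 neurons and the RA members to early dI5-like neurons. By the number of factors at least 2-fold apart, Foxd3 neurons were again next in RA+BMP4, with 8, while in RA Barhl neurons had 11 and early dI5-like neurons 12.

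Against the other neurons, 10 genes were called higher in neuronal members of both libraries (0.151% of 6633) and 31 lower (0.467%). The higher genes, with gate genes and unnamed gene models left out, were Tac1, Gabra2, Adra2a, Tox2, Sez6l, Tpbg and Enox1. Gabra2, a GABA-A receptor subunit, had 21.1 CPM in RA+BMP4 members and 4.37 CPM in other neurons, and 25.9 and 6.98 CPM in RA. Adra2a, an inhibitory adrenergic receptor, had 22.6 and 3.45 CPM in RA+BMP4 members and other neurons, and 20.9 and 5.999 CPM in RA. Tox2 had 21.1 and 6.82 CPM in RA+BMP4, and 53.1 and 17.7 CPM in RA. Enox1, a surface oxidase, was higher at a better counted level, with 132 and 53.5 CPM in RA+BMP4 and 118 and 55.3 CPM in RA, and so was Tpbg, a Wnt-modulating membrane glycoprotein, with 117 and 50.2 CPM in RA+BMP4 and 80.7 and 34.85 CPM in RA.

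Tac1 encodes the precursor of substance P, a peptide of nociceptive circuits. It had 78.25 CPM in RA+BMP4 members, where all 52 counts came from 1 cell, and 33.55 CPM in RA members, with 101 counts in 18 cells of which the highest held 27.7%. The other neurons had 0.207 CPM in RA+BMP4 and 3.76 CPM in RA. The RA+BMP4 level is thus that of a single cell, while in RA the gene was present in several members. Of the 18 RA cells with Tac1, 12 carried Tlx3 or Lbx1 alone, as did 139 of all 222 RA neuronal members.

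The lower genes shared by both libraries were led by Pax2, Neurod4, Rassf4, Gadd45g and Zbtb18. Pax2, a factor of inhibitory dorsal neurons, had 1.51 CPM in RA+BMP4 members, from 1 count, and 32.3 CPM in other neurons, and 5.65 and 119.5 CPM in RA. Neurod4, a bHLH factor of newly born neurons, had 21.1 and 49.4 CPM in RA+BMP4, where 1 cell held 64.3% of the members' counts, and 2.33 and 42.7 CPM in RA. Gadd45g, a growth arrest gene switched on as neurons are born, had 52.7 and 140.6 CPM in RA+BMP4, and 17.9 and 137.5 CPM in RA. Tle1, a Groucho co-repressor, Tead2, a Hippo pathway factor, Chst15, Msn and Tgfb2 completed the 10 lowest.

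Within one library more genes were called. In RA+BMP4 78 genes were higher (1.09% of 7140) and 143 lower (2.0%), and in RA 41 were higher (0.602% of 6810) and 137 lower (2.01%). Newborn neuron markers were lower in both, with 0 higher and 6 lower of 12 in RA+BMP4 (median log2 ratio -0.95) and 0 higher and 9 lower of 11 in RA (median -1.73). Cell cycle markers were 3 lower of 4 in RA+BMP4 and 4 lower of 4 in RA. Of the dI4 and dILA markers, which name the inhibitory classes, all 5 measured genes (Pax2, Gad2, Slc32a1, Lhx1 and Lhx5) were lower in RA members, and 1 of 3 (Pax2) in RA+BMP4 members.

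The dI2 markers parted the libraries. In RA, Lhx1 was at 38.2 CPM in members and 265 CPM in other neurons, and Lhx5 at 3.99 and 34.4 CPM, both called lower. In RA+BMP4, Lhx1 was at 298 CPM in members and 246.5 CPM in other neurons, and Lhx5 at 37.6 and 31.05 CPM, neither called. Nr4a2 had 94.8 and 38.9 CPM in RA+BMP4 members and other neurons (log2 ratio 1.28), which turned to -0.49 with a neuron cut of 40 UMIs per 10000 and lost its call, at 0.53, against other neurons without a Barhl UMI. Over the 5 dI2 markers the summed level was 495.1 CPM in RA+BMP4 members and 365.5 CPM in other neurons, and 52.8 and 328.2 CPM in RA, with none at 0. Against RA+BMP4 neurons without a Barhl UMI the direction turned, with 495.1 CPM in members and 589.2 CPM in those neurons. In RA, Lhx1 and Lhx5 held most of the sum of other neurons, and both are also on the dI4 and dILA list. Hmx2 and Hmx3 had 4.98 and 2.99 CPM in RA members, and 9.80 and 5.82 CPM in other RA neurons without a Barhl UMI. The RA sum therefore does not tell dI2 markers from dI4 and dILA markers. Foxd3 itself was set to 0 by the rule, and the Foxd3 neurons of RA+BMP4 had 533 CPM of Lhx1 and 170 CPM of Nr4a2. How many RA+BMP4 members carried Foxd3 below detection was not tested.

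Genes high in RA members alone included enzymes and channels beside the markers. Hs3st2, a heparan sulfate sulfotransferase of neurons, had 28.9 CPM in RA members and 5.05 CPM in other RA neurons, and 4.52 CPM, from 3 counts, in RA+BMP4 members. Car10, a secreted carbonic anhydrase-related neurexin ligand, had 37.9 CPM in RA members and 7.78 CPM in other RA neurons, and 6.02 CPM in the members of RA+BMP4. Scn3b, a sodium channel beta subunit, had 137.5 and 45.75 CPM in RA (log2 ratio 1.59), and 46.65 and 51.3 CPM in RA+BMP4 (-0.14). Chl1, a neural adhesion molecule, had 204 and 72.7 CPM in RA, and 105.3 and 100.5 CPM in RA+BMP4. Sst and Cartpt, neuropeptide genes of other dorsal neurons, were low in RA members, at 44.2 CPM of Sst in members and 675 CPM in other neurons, and 11.6 and 335 CPM of Cartpt.

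Genes high in RA+BMP4 members alone included the peptide gene Pnoc, the pro-apoptotic Hrk, the stress genes Atf3 and Chac1, and the contactin Cntn4. Pnoc had 87.3 CPM in RA+BMP4 members and 12.4 CPM in other neurons, and 0.664 and 26.15 CPM in RA. Atf3, an immediate early factor also raised by injury, had 55.7 and 9.56 CPM in RA+BMP4, from 37 counts in 12 cells, and 6.64 and 9.99 CPM in RA. Chac1, a target of the integrated stress response, had 60.2 and 9.77 CPM in RA+BMP4, and 5.31 and 8.41 CPM in RA. Of the 10 immediate early and heat shock genes measured in RA+BMP4, 2 were higher (Egr1 and Atf3) and 0 lower. Their part in the other differences was not tested.

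The makeup of the other neurons differed between libraries. A Barhl1 or Barhl2 UMI, the mark of dI1 neurons, stood in 1774 of 3376 other neurons in RA+BMP4 (52.6%) and in 160 of 2624 in RA (6.10%). Slc17a6 was at 185.6 CPM in the Barhl neurons of RA+BMP4 and at 25.3 CPM in the other neurons without them. Against other neurons without a Barhl UMI, the RA+BMP4 members' log2 ratio was 0.32 for Slc17a6 and 0.84 for Reln, and the RA members' ratio was 1.96 and 1.73. The call of lower Slc17a6 in RA+BMP4 members thus ended without Barhl neurons, while Slc17a6 and Reln stayed higher in RA members either way. Of the 7 genes named as higher in both libraries, Tox2 and Tpbg lost their RA+BMP4 call without Barhl neurons (log2 ratios 0.85 and 0.84), and Tac1, Gabra2, Adra2a, Sez6l and Enox1 kept theirs. Without Barhl neurons 53 genes were higher and 125 lower in RA+BMP4, and 42 and 128 in RA.

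**Figure D3:**
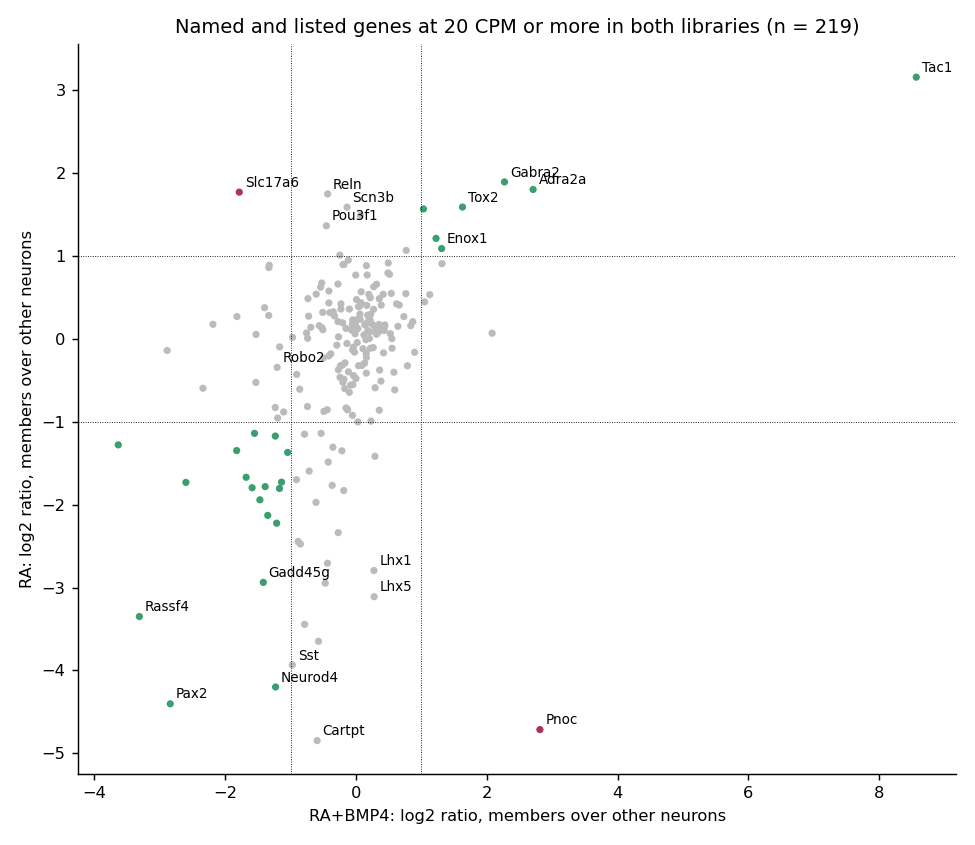
Log2 ratio of neuronal members over other neurons in RA+BMP4 (horizontal) and RA (vertical) for 219 named and listed genes, with gate genes left out and dotted lines at 2-fold. Green points were called the same way in both libraries (25 genes) and red points opposite ways (Slc17a6 and Pnoc), and Tac1 in RA+BMP4 rests on 1 cell.

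All 309 members together gave another list, since 7 RA+BMP4 members and 16 RA members lay below the neuron cut. These 23 cells held 19.9% and 18.1% of the members' UMIs. In RA 7 of them had at least 1000 CPM of pluripotency genes and 49210 to 92651 UMIs each. Over all members 27 genes were called higher in both libraries (0.405% of 6671) and 17 lower (0.255%). The 15 highest were led by Hspb1, a small heat shock protein, and Tac1, and held mitotic genes such as Ccnb1 and Cdc20, which drive entry into and exit from mitosis. Hspb1 was at 130.9 CPM in all RA members and 9.16 CPM in other RA neurons. Ccnb1 and Cdc20 were lower, not higher, in RA once members had to pass the neuron cut (log2 ratios -1.17 and -1.59). Of the called genes, 5 of the 27 higher and 13 of the 17 lower were also called with neuronal members alone.

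Early dI5-like neurons were defined by the neuron cut, at least 1 UMI of Tlx3, at least 2 UMIs of Prrxl1 and Lmx1b and the same exclusions. The word early is part of the class name, and an order in time between this class and the members was not tested. There were 37 in RA+BMP4 and 370 in RA, so the RA comparison is the better counted. In RA 302 genes were higher in neuronal members than in early dI5-like neurons (4.38% of 6898) and 222 lower (3.22%). In both libraries together 124 were higher (1.88% of 6599) and 108 lower (1.64%), and with all members 103 (1.55% of 6660) and 80 (1.2%). The RA neuronal members carried less RNA of newborn genes and more RNA of mature neuron genes. Of the dI5 birth factors, Tlx3, Prrxl1 and Lmx1b were part of the gates, so their differences follow from the rules. Lbx1, which no gate used, was under 2-fold.

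Newborn and cell cycle genes were low in the RA neuronal members. Tlx3 had 152 CPM in RA members and 461.5 CPM in early dI5-like neurons (log2 ratio -1.60), although Tlx3 was part of the early gate. Tlx1, its close relative, had 1 count in RA members (0.332 CPM) and 81.5 CPM in early dI5-like neurons. Lbx1, which no gate used, had 71.4 and 81.1 CPM, under 2-fold. Newborn neuron markers were 0 higher and 10 lower of 11 (median log2 ratio -2.63, against -0.01 over all genes), among them Neurod4 at 2.33 and 72.2 CPM and Nhlh1 at 19.6 and 125.4 CPM. Cell cycle markers were 0 higher and 4 lower of 4, and progenitor markers 0 higher and 3 lower of 5 (Sox2, Vim and Fabp7). Both depend on the neuron cut: over all RA members, cell cycle markers were 4 higher and 0 lower of 8 and progenitor markers 0 higher and 0 lower of 5.

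In RA+BMP4 578 genes were higher in neuronal members than in the 37 early dI5-like neurons (7.95% of 7273) and 511 lower (7.03%). The dI2 markers were 5 higher and 0 lower of 5, and the later dI5 markers 0 higher and 2 lower of 4 (Cntnap5a and Slc17a6). Lhx1 was at 298 CPM in RA+BMP4 members and 58.7 CPM in early dI5-like neurons, and Slc17a6 at 31.6 and 72.7 CPM. Newborn markers were 0 higher and 8 lower of 11 and maturation genes 4 higher and 0 lower of 18. The RA+BMP4 members thus stood apart from early dI5-like neurons in the newborn and maturation lists as in RA, and in the dI2 and later dI5 lists unlike RA; the difference between libraries was not tested.

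Genes of maturing axons and excitability were high in the RA members. Neuronal maturation genes were 7 higher and 0 lower of 18 (median log2 ratio 0.77) and voltage-gated channels 7 higher and 0 lower of 12 (median 1.16). Gap43, a growth cone protein, had 801 CPM in members and 247 CPM in early dI5-like neurons, Mapt, the microtubule protein tau, 482 and 127 CPM, and Nefl, the light neurofilament, 711.5 and 239 CPM. Among channels, Scn3b had 137.5 and 22.6 CPM, and Scn2a, a sodium channel, 53.1 and 16.5 CPM. The adhesion genes Chl1, with 204 and 21.3 CPM, Cdh13, with 87.0 and 19.0 CPM, and Pcdh7, with 60.1 and 13.7 CPM, were higher as well.

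The later dI5 markers stood in between. Reln had 318.5 CPM in RA members and 134.5 CPM in early dI5-like neurons (log2 ratio 1.24), and Slc17a6 had 156 and 77.1 CPM (1.02). Slc17a6 lost its call with a neuron cut of 40 (0.71), with all members (0.77) and with TMM or median-of-ratios factors (0.96 and 0.95), and Reln with a cut of 40 (0.99). Fstl5 had 241 and 246 CPM and was level. Of the 12 birth-date factors measured, the Zfhx2, Zfhx3 and Zfhx4 genes, which encode zinc finger homeobox factors, were higher, and Nfia, Nfib, Neurod2, Tcf4 and Prox1 were lower. Zfhx3 had 1575 and 575 CPM, and Nfib, a factor of late-born neurons, 7.64 and 32.9 CPM.

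**Figure D4:**
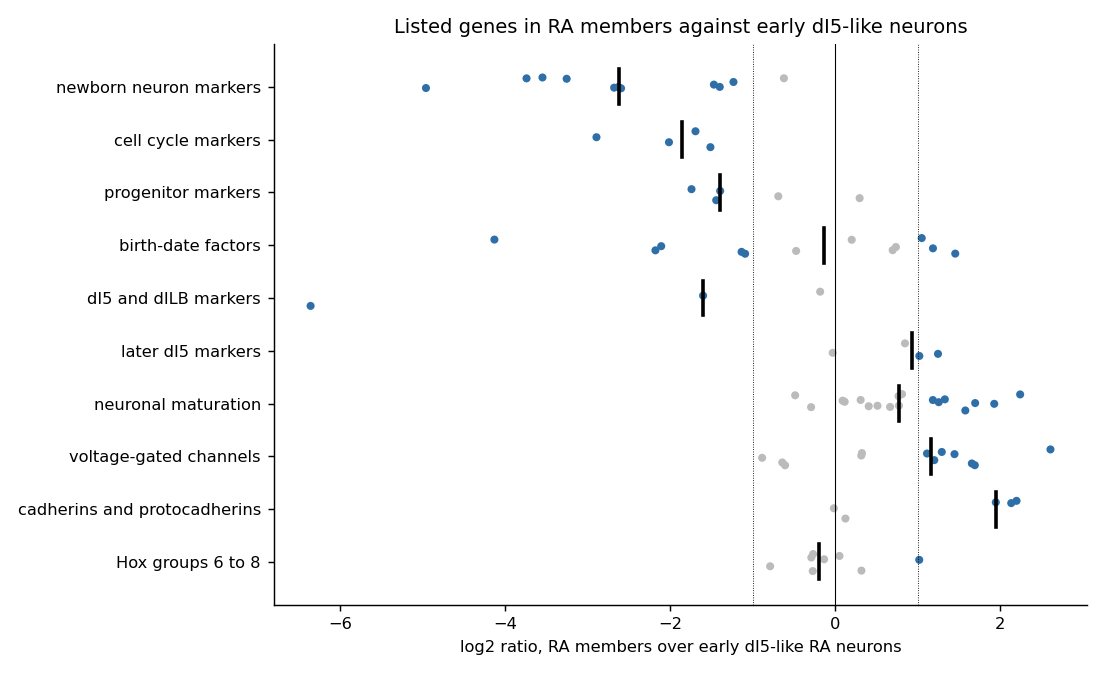
Log2 ratio of RA neuronal members over early dI5-like RA neurons for the genes of 10 lists, 1 point a gene, with a black bar at each list's median, blue where called and grey where not, and dotted lines at 2-fold. Newborn and cell cycle markers lie to the left, and maturation genes, channels and cadherins to the right.

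Between the members of the 2 libraries, 246 genes were higher in RA+BMP4 neuronal members than in RA neuronal members (3.51% of 6999) and 133 lower (1.9%), with a median log2 ratio of 0.04 over all genes. Over all members the counts were 275 (3.83% of 7181) and 190 (2.65%). The dI2 markers were 5 higher and 0 lower of 5 (median 3.18), and the later dI5 markers 0 higher and 3 lower of 4 (median -2.09). In log2 ratio, Lhx1 was at 2.96 (interval 2.63 to 3.31), Nr4a2 at 5.16, Hmx2 at 2.92 and Hmx3 at 3.18. Lbx1 was at -3.57, with 6.02 CPM in RA+BMP4 members and 71.4 CPM in RA members. Tlx3 was at -1.11, with 70.7 and 152 CPM, and at -0.06 when both Pou4f genes had to reach 2 UMIs. The other neurons of RA+BMP4 and RA differed the same way, with 14.7 and 71.2 CPM of Lbx1 and 42.6 and 126 CPM of Tlx3. Nr4a2 was also higher in RA+BMP4 there, at 38.9 and 13.8 CPM, while Lhx1 was close, at 246.5 and 265 CPM.

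Guidance and growth genes differed too. Of the netrin and slit genes 4 were higher and 0 lower of 9 in RA+BMP4 members. Robo3 had 277 CPM in RA+BMP4 members and 105.6 CPM in RA members (log2 ratio 1.39), Dcc, the netrin receptor, 128 and 55.1 CPM, and Unc5d, a repulsive netrin receptor, 52.7 and 2.66 CPM. Gap43 was lower, at 250 and 801 CPM (-1.68), while Mapt, at 494 and 482 CPM, and Nefm, at 450 and 399 CPM, were within 2-fold. Other neurons without a Barhl UMI had the same directions with smaller gaps, at 387 and 674 CPM of Gap43, 256 and 208 CPM of Robo3 and 150 and 97.75 CPM of Dcc. In Barhl neurons Gap43 (326 and 203.5 CPM) and Robo3 (218 and 240 CPM) went the other way. Unc5d had 35.3 and 9.62 CPM in all other neurons. Of 18 maturation genes, 1 was called, so the RA+BMP4 members did not stand apart in the maturation list as they did in the dI2 list. Of the newborn markers 5 were higher and 0 lower of 9, among them Neurod4 and Nhlh1. Over all RA+BMP4 members, 9 of the 17 Neurod4 counts came from 1 cell. The 6 highest genes named included Olig3, a dorsal progenitor factor, with 27.1 CPM in RA+BMP4 members and 0.996 CPM, from 1 cell, in RA members.

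Hox genes place spinal neurons along the head to tail axis. Hoxc9, a thoracic gene, had 617 CPM in RA+BMP4 members and 138.5 CPM in RA members (log2 ratio 2.16). The other neurons showed the same gap, with 455 and 125 CPM in RA+BMP4 and RA, so the members were level with their own library (log2 ratios 0.44 and 0.15). Hoxa5, a cervical gene, had 42.1 and 115.9 CPM in RA+BMP4 and RA members. Hoxc8, of the brachial group, was within 2-fold between the members, at 897 and 721 CPM.

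Markers of other cell types were sparse in the neuronal members. The dI1 markers summed to 0.0 CPM in RA+BMP4 members and 100.3 CPM in other neurons, with Lhx2, Lhx9 and Atoh1 all at 0, and to 0.664 and 19.4 CPM in RA. Of 12 sensory neuron and neural crest markers, those at 0 included Prph, Ret, Runx1 and Sox10 in RA+BMP4 members, and Sox10 was at 0 in RA members. The list summed to 204.7 CPM in RA+BMP4 members and 209.3 CPM in other neurons. In the ventral list 8 of 9 markers were at 0 in RA+BMP4 members and 3 of 9 in RA members. Pluripotent markers summed to 15.05 and 44.5 CPM in RA+BMP4 and RA neuronal members.

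The members also varied among themselves. After thinning to 5000 UMIs, the most variable genes over 304 members, by variance over mean, were Malat1 (41.4), Tmsb4x (21.3), Dppa5a, Meg3, Crabp1, Tac1, Fabp7 and Cenpf (7.62), against a median of 1.07 over 4176 genes. The measure was not adjusted for the mean, which was 196 UMIs for Malat1 and 0.266 for Cenpf, and members below the neuron cut were included. Some ranks rest on few cells. At full depth 1 RA cell held 36.8% of the RA members' Fabp7 counts, and 1 RA+BMP4 cell held 85.2% of the RA+BMP4 members' Cenpf counts. Dppa5a, a pluripotency gene, had 1 UMI or more in 20.25% of RA members, with up to 36 UMIs in a cell, and in 4.48% of RA+BMP4 members. The shares were 12.8% in other RA neurons and 8.87% in RA collagen-rich cells. The pluripotent list summed to 895.6 CPM over all RA members and 44.5 CPM over the neuronal ones, against 42.6 CPM in other RA neurons. Crabp1, a retinoic acid binding protein, had a median of 2 UMIs in RA+BMP4 members and 0 in RA members. Over the neuronal members Crabp1 stood at 1425 and 305 CPM, and at 2675 and 991 CPM in the other neurons of the 2 libraries. Fabp7, a radial glial gene, had a UMI in 46.3% of RA+BMP4 members and 41.0% of other neurons, and in 37.55% and 41.3% in RA, with 28.2% and 21.2% of collagen-rich cells of the 2 libraries.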

How the data were processed

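The authors deposited raw UMI counts per gene and cell barcode, 1 matrix per library, per the labels made with 10x Genomics Chromium Single Cell 3' version 3 chemistry. Per the submitters' processing notes, CASAVA and Cell Ranger 3.0.2 were used with GRCm38; how barcodes were called as cells was not stated. The libraries held 13121 (RA+BMP4) and 9704 (RA) barcodes with 115268932 and 122110565 UMIs.

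Cells were kept with at least 1000 genes and at most 10% mt- UMIs. Counts were summed over a group of cells and divided by the group's total (CPM), with Poisson intervals for levels, exact conditional intervals for ratios of levels, a normal approximation on the log scale for ratios of shares, and exact binomial intervals for shares. A share of 0 was given the limit that 3 counts allow. Intervals cover counting error only. Sums under 3 counts were set to 3 before a ratio. Foxd3 neurons and Pax2 neurons had at least 2 UMIs of the named gene and passed the neuron cut, and members were left out of the Pax2 neurons. Collagen-rich cells had at least 10 collagen UMIs per 10000. Doublets were called with Scrublet (in scanpy 1.11.5, expected share 8%) and kept, as the rule does not remove them. Analyses used Python 3.11.15, numpy 2.4.6, scipy 1.17.1 and pandas 2.3.3, and R 4.3.3 with edgeR 4.0.16 and DESeq2 1.42.0 for scaling factors only; the ratio script was tested on simulated data. With 1 library per condition no count test could be run.

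The members, gene lists and markers were chosen with earlier results of these data known. Genes named were the 15 highest and 10 lowest ratios against other neurons called in both libraries (and in each library alone), the 8 highest and 8 lowest against early dI5-like neurons, the 6 highest and 6 lowest between libraries, the 8 most variable genes, and genes of 41 lists, leaving out gate genes, gene models, mitochondrial, ribosomal protein and Xist genes. The per-library sets, the values over neuronal members, the Foxd3 neurons, the division by Lhx1 or Lhx5 and Tlx3 or Lbx1, and the comparison without Barhl neurons were added after seeing the data. Alternatives covered doublets, the cell filter, the gate, thinning, the neuron cut, cell weights, normalization and the CPM minimum. Gene coordinates matched by gene ID. Some genes are not reported here.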

Additional observations from a re-analysis of the deposited data

Results flagged for a closer look

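Slc17a6 and Pnoc were called in opposite directions in the 2 libraries when neuronal members were set against other neurons, and the difference between libraries was not tested, since each condition was 1 library. For Slc17a6 the log2 ratio was -1.78 in RA+BMP4 (31.6 CPM in members and 109 CPM in other neurons) and 1.77 in RA (156 and 45.8 CPM). Against other neurons without a Barhl UMI the ratio was 0.32 in RA+BMP4 and 1.96 in RA, so the opposite sign was not seen there. For Pnoc the ratio was 2.81 in RA+BMP4 (87.3 and 12.4 CPM) and -4.71 in RA (0.664 and 26.15 CPM), and 2.02 and -4.79 without Barhl neurons. All RA+BMP4 Pnoc counts of the members came from 9 cells. In all, 4 genes were called in opposite directions, of which these 2 were named or listed.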

How the results depend on the processing

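Counts over all members moved with these settings. With cells of 2000 or more genes and a mitochondrial share of 5% or less (48 and 34 members in RA+BMP4 and RA), 28 genes were lower than in other neurons, 127 lower than in early dI5-like neurons, 534 higher and 433 lower in RA+BMP4 than in RA members, and the ratio of shares of kept cells was 0.292. With both Pou4f genes at 2 UMIs or more, 9 genes were higher and 32 lower than in other neurons, and 561 higher and 295 lower between libraries. Thinned before the gates, 7 were higher than in other neurons, 636 higher and 319 lower between libraries, and the ratio of shares of neurons was 0.328. With members above the neuron cut, 10 were higher and 31 lower than in other neurons. A neuron cut of 10 gave 6 higher than in other neurons, a cut of 40 gave 64 higher than in early dI5-like neurons, and equal cell weights gave 9 higher than in other neurons. With at least 50 CPM, 7 were higher and 6 lower than in other neurons, 35 and 46 than in early dI5-like neurons, and 114 and 53 between libraries; with no minimum, 157 and 66, 163 and 172, and 957 and 541.

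Of 2451 alternative values for 206 gene ratios, 2044 stayed within the counting interval of the reported ratio, 390 moved beyond it and 17 changed sign. Between libraries, Cartpt was at -0.35 without doublets and -0.27 with a cut of 40, and Id1 at -0.16 after thinning. Against other neurons in RA+BMP4, Tgfb2 was at 0.46 over all members and 0.22 with a cut of 10, and Nr4a2 at -0.49 with a cut of 40. Over all members, Ccnb1 was at -0.89 (stricter filter), -0.46 (thinned), -1.17 (neuron cut) and -0.11 (cut of 10) in RA and -0.40 (neuron cut) in RA+BMP4, Cdc20 at -0.53 (thinned), -1.59 (neuron cut) and -0.034 (cut of 10) in RA and -1.06 (neuron cut) in RA+BMP4, and Hspb1 at -0.73 (neuron cut) and -0.57 (cut of 10) in RA+BMP4. The cause was not tested, except that the neuron cut removes the 23 members below it. TMM and median-of-ratios factors shifted the ratios by at most 0.084. No paired analysis was possible because each condition was 1 library, and for the same reason no replicate could be left out. The 64 RA+BMP4 neuronal members limit the counting there, and genes under about 20 CPM rest on few cells.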
